A study of Mus musculus with 30 samples.

Results

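Prdm1 encodes Blimp-1, the transcriptional repressor that B cells switch on when they become antibody-secreting plasma cells. Of 34945 probe sets annotated to a single gene symbol, 1 was annotated to Prdm1 (Entrez gene 12142), and its signal was followed across 30 mouse expression arrays in 10 groups of 3. Resting mature B cells had been enriched from the spleen of C57BL/6, B1-8i mice. They were either Irf4+/+ (wild type) or came from animals on the Irf4-/- background that carry an Irf4 gene switched on by doxycycline (called KO here, whatever the dose). Wild-type cells were taken at day 0, 1 and 3 and carry no doxycycline label. KO cells were taken at day 0 without doxycycline, and at day 1 and 3 after culture without doxycycline (0 ng/mL, zero DOX), with 16 ng/mL (low DOX) or with 100 ng/mL (high DOX). No stimulus was given before day 0, and all later cultures, of both genotypes, received CD40 ligand plus the cytokines IL-2, IL-4, IL-5. The age of the mice and the promoter that drives the inducible Irf4 were not given in the labels. According to the series text each replicate came from its own mouse, and 2 of the 3 replicates of a group were run side by side with the remaining one on another occasion. Which replicate that was is not stated, so no value within an occasion could be given.

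Blimp-1 silences genes that maintain the B cell state, among them Pax5, Bcl6 and Ciita, and so allows the secretory programme of plasma cells to unfold. Its own gene is held down in B cells by repressors such as Bcl6, Bach2 and Pax5, and is activated by IRF4 together with STAT, NF-kB and AP-1 factors. IRF4 binds DNA weakly alone, and pairs with ETS factors such as PU.1 and Spi-B or with AP-1 factors of the BATF and JUN families. Low IRF4 is associated with germinal centre fate and high IRF4 with plasma cell fate, and the dose comparison addresses how Prdm1 stands at each level.

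A window around 1 start of Prdm1 is shown because AP-1 and IRF-type elements are the ones through which these regulators are known to act. It holds 250 bases before and 50 after a transcript start in RefSeq's annotation of GRCm38.p6 (chr10:44458699-44458998, minus strand). RefSeq's span of the gene reaches further upstream on that strand, so at least 1 other transcript start lies outside this window. Capitals mark the match to the AP-1 pattern searched.
Prdm1: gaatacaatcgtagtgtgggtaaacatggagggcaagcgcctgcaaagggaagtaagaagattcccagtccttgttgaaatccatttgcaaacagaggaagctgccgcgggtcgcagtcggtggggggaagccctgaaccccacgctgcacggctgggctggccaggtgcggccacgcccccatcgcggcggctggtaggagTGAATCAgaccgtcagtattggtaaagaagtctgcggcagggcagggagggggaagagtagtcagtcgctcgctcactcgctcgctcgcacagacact
The AP-1 pattern TGANTCA, in which any base was allowed at N, matched once as TGAATCA, with its first base at -48 from that start. It occurs in 7.81% of 32851 promoter windows of the same length, searched on both strands. The IRF repeat GAAANNGAAA (3.44% of windows), the Ets-IRF composite GGAANNGAAA (2.72%) and the Blimp-1 core GTGAAAG (4.24%) were not matched in these letters, which says nothing of sites elsewhere in the gene. The arrays measure transcript and no binding, so the match is a description.

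A few arrays stood apart. Irf4 was read by 2 probe sets, and 1 of them followed doxycycline: at day 3 it read 7.50 with zero DOX, 13.01 ± 0.076 (SD, n = 3) with low DOX and 13.58 ± 0.068 with high DOX on the log2 scale. In wild type at day 3 it read 7.32, no higher than with zero DOX, so its readings are compared only within KO. The other set read 10.82 in wild type and 11.10 in KO with zero DOX on that day. By the set that followed doxycycline a pair of day 1 arrays went against their labels: replicate 2 labelled zero DOX read 10.77 (the others of that group 7.84 and 7.80), whereas replicate 2 labelled low DOX read 7.69 (the others 11.17 and 10.89). Both are kept under their labels. B cell markers were present in every group: 7 were measured, with summed intensities of 34663 to 67446. At day 0 KO arrays carried more myeloid signal than wild type. The 16 myeloid markers summed to 7513 to 17170 in KO and 3426 to 3639 in wild type at day 0. The median signal per array lay between 171.4 and 199.7, and precision is set by the 3 arrays in each group.

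Prdm1 stood high in 3 groups only, wild type at day 3 and KO at day 3 with low or high DOX. Values are log2 of the deposited intensity plus 16. In wild type at day 0 the replicates numbered 1, 2 and 3 read 8.12, 7.87 and 8.37 (mean 8.12 ± 0.252 SD, n = 3). In wild type at day 1 they read 7.41, 7.35 and 7.85 (7.54 ± 0.275). In wild type at day 3 they read 9.46, 9.38 and 9.57 (9.46 ± 0.096). All 3 day 3 arrays lay above every wild-type array of day 0 and day 1, and the arrays of day 0 and day 1 did not overlap, with the highest day 1 value just below the lowest day 0 value.

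KO cells at day 0 read 8.46, 8.88 and 7.76 (8.37 ± 0.569), the widest spread of any group, and overlapped wild type of that day. At day 1 with zero DOX the arrays read 7.75, 7.90 and 7.72 (7.79 ± 0.092). With low DOX at day 1 they read 7.81, 7.84 and 7.60 (7.75 ± 0.13). With high DOX at day 1 they read 8.10, 8.06 and 7.86 (8.01 ± 0.128). The 3 doses were thus close to one another after a day, and the high DOX arrays overlapped those with zero DOX.

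At day 3 the doses separated. With zero DOX the arrays read 7.87, 7.89 and 7.53 (7.76 ± 0.204). With low DOX they read 10.33, 10.17 and 9.72 (10.08 ± 0.315). With high DOX they read 11.07, 11.01 and 10.80 (10.96 ± 0.14). No array of a dose overlapped another dose, and replicate 3 was the lowest array at each. As intensities, the zero DOX arrays stood at 218.5, 221.4 and 168.9. The low DOX arrays stood at 1273, 1139 and 830.2. The high DOX arrays stood at 2131, 2049.9 and 1770.4, and the wild-type arrays of that day at 686.2, 647.8 and 742.1.

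**Figure D1:**
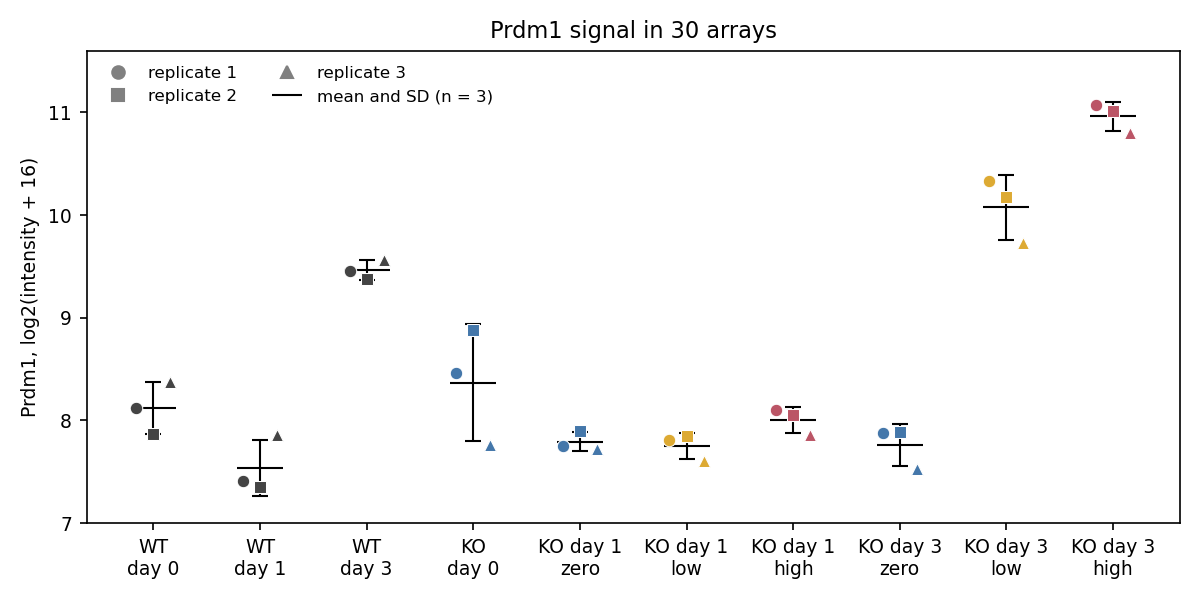
Prdm1 signal, as log2 of intensity plus 16, on each of 30 arrays (symbols by replicate number), with group means and SD (n = 3). The other 7 groups sit between 7.35 and 8.88 with overlapping neighbours, and wild type at day 3 (9.46), KO at day 3 with low DOX (10.08) and with high DOX (10.96) stand above them without overlap.

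Ordered from low to high by mean, the groups were wild type day 1, KO day 1 low DOX, KO day 3 zero DOX, KO day 1 zero DOX, KO day 1 high DOX, wild type day 0, KO day 0, wild type day 3, KO day 3 low DOX and KO day 3 high DOX. Each neighbouring pair among the first 7 groups overlapped, at mean differences of 0.014 to 0.247. The last 3 steps did not overlap, at 1.098, 0.612 and 0.884.

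The wild-type course asks how Prdm1 moves as normal B cells are activated. It fell by 0.58 in the first day (SE 0.20, adjusted p = 0.01, limma with Benjamini-Hochberg adjustment over 12183 genes) and then rose by 1.93 from day 1 to day 3 (adjusted p = 1.1e-08), a 3.8-fold increase of intensity plus 16. Day 3 was 1.35 above day 0 (adjusted p = 2.2e-06). Most genes changed with activation: 81.5% of the genes tested were called between day 1 and day 0 and 65.3% between day 3 and day 0, and between day 3 and day 1 43.3% were called higher and 26.2% lower. The median of all genes moved by -0.15 from day 0 to day 1 and by 0.12 from day 1 to day 3, so the Prdm1 fall was smaller relative to other genes and its later rise stayed far above them. The first-day fall was not called without wild-type day 1 replicate 2 (-0.49, adjusted p = 0.05 after rounding) or without wild-type day 0 replicate 3 (-0.46, adjusted p = 0.062), nor after centring the arrays (-0.42, adjusted p = 0.066) or quantile normalization (-0.42, adjusted p = 0.061).

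Without doxycycline, KO cells had no such rise. From day 0 to day 1 Prdm1 fell by 0.58 (SE 0.20, adjusted p = 0.013), and day 3 differed from day 1 by -0.03 (adjusted p = 0.93). Day 3 was 0.60 below day 0 (adjusted p = 0.011). Both falls rest on KO day 0 replicate 2: without that array they were -0.32 (adjusted p = 0.15) and -0.34 (adjusted p = 0.13), and without KO day 3 zero DOX replicate 3 the second was -0.48 (adjusted p = 0.061). Across genes, 69.8% were called from day 0 to day 1, 52.6% from day 1 to day 3 and 62.4% from day 0 to day 3.

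At day 3 KO cells with zero DOX stood 1.70 below wild type (SE 0.20, adjusted p = 4.8e-07), a 3.25-fold lower level. In that comparison 15.8% of genes were called lower and 19.0% higher. Before stimulation the genotypes did not differ past the threshold (0.25, SE 0.20, adjusted p = 0.37), where 13.1% of genes were called higher in KO and 18.4% lower. That difference turned on the spread of the KO arrays: it was 0.55 without KO day 0 replicate 3 (adjusted p = 0.016) and -0.01 without KO day 0 replicate 2. At day 1 the difference was 0.25 (adjusted p = 0.3; 0.20 without the pair of day 1 arrays), with 49.6% of genes called.

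The change from day 0 to day 3 therefore differed between the genotypes. The interaction term was -1.95 (SE 0.28, adjusted p = 2.4e-05), in which 25.9% of genes were called. From day 1 to day 3 the interaction was also -1.95 (SE 0.28, adjusted p = 5e-05), with 29.2% of genes called. Both share the day 3 arrays, so they are not separate evidence. From day 0 to day 1 the interaction was 0.01 (SE 0.28, adjusted p = 0.98).

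Doxycycline raised Prdm1 at day 3 in a graded way. Low DOX stood 2.31 above zero DOX (SE 0.20, adjusted p = 5.1e-09), a 4.97-fold increase, where 17.6% of genes were called higher and 18.2% lower. High DOX stood 3.20 above zero DOX (adjusted p = 4.8e-12), a 9.16-fold increase, where 24.4% were called higher and 24.2% lower. High DOX stood 0.88 above low DOX (adjusted p = 0.0037), a 1.85-fold increase, where 6.69% were called higher and 6.09% lower. KO arrays of the same replicate number varied together, and the 3 same-number steps from low to high DOX were 0.74, 0.84 and 1.08. The same-number steps from zero to low DOX were 2.46, 2.28 and 2.19.

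The step from low to high DOX was smaller than the step from zero to low DOX by 1.43 on the log2 scale (SE 0.34, adjusted p = 0.017), and 4.37% of genes were called in this comparison. The doses are not evenly spaced, and the low DOX arrays enter both steps. The call was lost without KO day 3 low DOX replicate 1 (-1.17, adjusted p = 0.19) or replicate 2 (-1.33, adjusted p = 0.09), and when only the groups compared were fitted (adjusted p = 0.058).

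Both induced levels exceeded wild type at day 3. High DOX stood 1.5 above wild type (SE 0.20, adjusted p = 1.7e-06), a 2.82-fold higher level, where 22.1% of genes were called higher and 19.0% lower. Low DOX stood 0.61 above wild type (SE 0.20, adjusted p = 0.02), a 1.53-fold higher level, where 18.9% were called higher and 15.3% lower. The low DOX call was lost without low DOX replicate 1 (0.48, adjusted p = 0.11), low DOX replicate 2 (0.56, adjusted p = 0.068) or wild-type day 3 replicate 2 (0.57, adjusted p = 0.068). In the same comparison NK cell markers were higher with low DOX in 6 of 7 cases (median 1.36) and myeloid markers in 5 of 14 (median 0.09), with none lower, and their part in the Prdm1 difference was not tested. These are whole-culture RNA values, in which fewer cells of a type and less RNA per cell cannot be told apart.

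At day 1 Prdm1 did not follow the dose past the threshold. High DOX stood 0.22 above zero DOX (SE 0.20, adjusted p = 0.82), with same-number steps of 0.35, 0.16 and 0.14, and 0.27 above it without the pair of arrays that went against their labels (adjusted p = 0.88). In this comparison 1.26% of genes were called higher and 1.49% lower. Low DOX differed from zero DOX by -0.04 (adjusted p = 1; -0.03 without that pair), a comparison in which limma called 0 of 12183 genes and 34 had an unadjusted p under 0.05. High DOX stood 0.47 above wild type of day 1 (adjusted p = 0.063), which passed the threshold with array weights (0.58, adjusted p = 0.00047), without wild-type day 1 replicate 3 (0.63, adjusted p = 0.029) and when only these groups were fitted (0.47, adjusted p = 0.032).

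The Irf4 probe set that follows doxycycline was nonetheless high at day 1 with high DOX (12.88 ± 0.21, SD, n = 3), against 13.01 ± 0.076 at day 3 with low DOX. The pair of groups thus had similar readings by this set, which need not stand for all Irf4 transcript. Prdm1 stood at 8.01 in the first and 10.08 in the second. The array labelled zero DOX replicate 2, with the raised Irf4 reading, had a Prdm1 value of 7.90, and the array labelled low DOX replicate 2 had 7.84, both within the range of the other day 1 arrays.

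**Figure D2:**
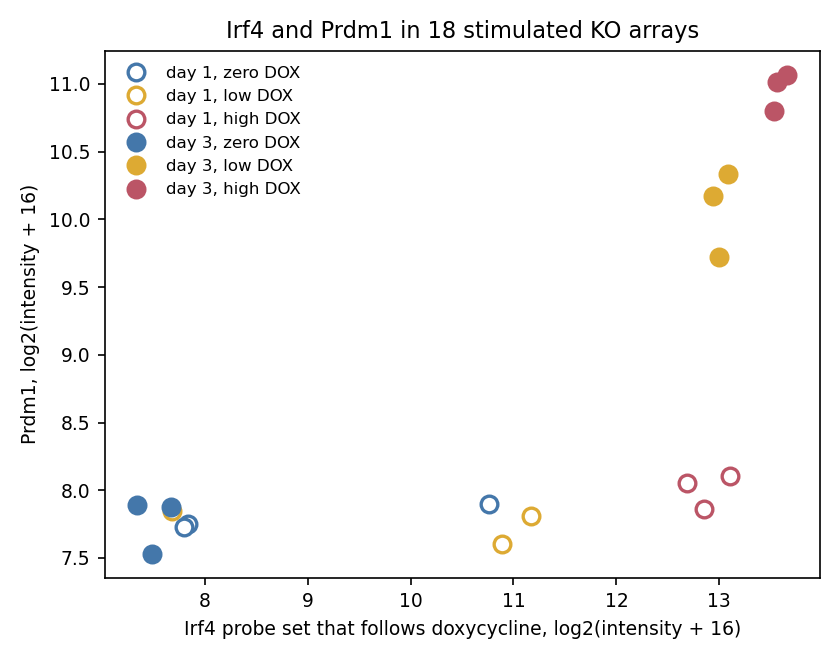
Prdm1 against the Irf4 probe set that follows doxycycline, both as log2 of intensity plus 16, on the 18 arrays of stimulated KO cultures (open circles day 1, filled circles day 3, colours by dose). The open circles stay between 7.60 and 8.10 on the Prdm1 axis at every Irf4 reading, and the filled circles of low and high DOX lie between 9.72 and 11.07.

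From day 1 to day 3 Prdm1 rose by 2.33 in low DOX cultures (SE 0.20, adjusted p = 1.4e-09), where 45.4% of genes were called. In high DOX cultures it rose by 2.95 (adjusted p = 1.3e-11), where 50.0% were called, with same-number steps of 2.96, 2.96 and 2.94. The effect of high DOX was 2.98 larger at day 3 than at day 1 (SE 0.28, adjusted p = 3.1e-08), and 26.2% of genes were called in this interaction.

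Genes listed as activators of Prdm1 did not move as a block at day 3. Of 14 tested in the list of 15 (Nfkb1 was not analysed here), 4 rose and 6 fell with high against zero DOX (24.4% and 24.2% of all genes did), with a median difference of 0.04 against 0.00 for all genes. Xbp1, the transcription factor of the secretory programme, rose by 0.94 (adjusted p = 8.7e-10). Xbp1 and Irf4 are also counted below among the genes higher where Blimp-1 is present. The E protein Tcf3 (0.50), the octamer coactivator Pou2af1 (0.39) and Stat5b (0.27) also rose. Jun, an AP-1 subunit, fell by 1.40 (adjusted p = 7e-10), and Zbtb20 (-0.82), Stat3 (-0.30) and Rela (-0.30) fell too. With low against zero DOX 3 rose and 5 fell (17.6% and 18.2% of all genes did). With high against low DOX 2 rose and 1 fell (6.69% and 6.09% of all genes did). In KO with zero DOX against wild type 4 were higher and 2 lower (19.0% and 15.8% of all genes), with Jun 1.04 higher. Irf4 is counted in this list by its other probe set, which did not respond to doxycycline at day 3 (0.09, adjusted p = 0.59).

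Most repressors of Prdm1 fell as the dose rose. Of 8 tested in the list of 9 (Mitf was below the filter on low values), 6 fell and 0 rose with high against zero DOX, with a median of -0.59. Bcl6, the germinal centre repressor, fell by 1.42 (adjusted p = 3.4e-06), Pax5, the keeper of B cell identity, by 1.12 (adjusted p = 3.5e-09), Spib by 1.03 (adjusted p = 6.2e-10) and Spi1, which encodes PU.1, by 0.67. A second Bcl6 probe set was at -0.16 (adjusted p = 0.42) in that comparison, at -0.12 (adjusted p = 0.59) with low against zero DOX and at -0.04 (adjusted p = 0.93) with high against low DOX, so the fall of Bcl6 rests on 1 set of 2. Bach2 was at 0.01 (adjusted p = 0.96). With low against zero DOX 4 fell and 0 rose, and with high against low DOX again 4 fell and 0 rose. Of all genes 24.2% fell with high against zero DOX, 18.2% with low against zero DOX and 6.09% with high against low DOX. In wild type, where Prdm1 rose from day 1 to day 3, 5 of the 8 rose and 1 fell (median 0.36). Of all genes 43.3% rose and 26.2% fell there. In KO with zero DOX against wild type at day 3, 3 were higher and 1 lower (median 0.04), with 19.0% and 15.8% of all genes. At day 1 with high against zero DOX 1 fell (1.49% of all genes did), Spi1 (-0.27), a call that 12 of its alternatives lost.

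Genes reported as repressed by Blimp-1 were mostly lower where Prdm1 was high in KO cultures. Of 19 tested, 16 fell and 2 rose with high against zero DOX, with a median of -0.56 against 0.00 for all genes. Cd86, a costimulatory ligand, fell by 1.64 (SE 0.19), and so did Ciita, the master regulator of MHC class II (-1.53), Bcl6 (-1.42) and Fcer2a, the low-affinity IgE receptor (-1.23). The exceptions that rose were Xrcc6 (0.41), a DNA repair subunit, and Myc (0.29). With low against zero DOX 10 fell and 2 rose (median -0.35), led by Bcl6 (-0.75), Ciita (-0.69), Cd86 (-0.66) and Pax5 (-0.66). With high against low DOX 10 fell and 0 rose, led by Cd86 (-0.98), Ciita (-0.84) and Bcl6 (-0.68), the last of which was lost in 4 alternatives. The second Bcl6 set was not called in these 3 comparisons. Of all genes 24.2%, 18.2% and 6.09% fell in these comparisons in turn, and 24.4%, 17.6% and 6.69% rose. Pax5, Bcl6, Spib, Id3 and Bach2 belong to this list and to that of the repressors.

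In wild type the same list did not fall with the rise of Prdm1. From day 1 to day 3, 11 of the 19 rose and 5 fell (median 0.22 against 0.12 for all genes), near the shares of all genes (43.3% and 26.2%). After centring the arrays 7 rose and 6 fell. Bcl6 rose by 1.21 (adjusted p = 1.6e-05; 0.74 by its second set), Cd86 by 1.04, Ciita by 0.76 and Cd22 by 0.65. Xrcc5 (-0.87), Xrcc6 (-0.69), Myc (-0.65) and Stat6 (-0.36) fell. With high DOX against wild type at day 3, 12 were lower and 2 higher (median -0.44 against 0.01), led by Bcl6 (-1.73; -0.62 by its second set), Fcer2a (-1.63), Id3 (-1.53) and Ciita (-1.35), and the higher members were Syk (0.72) and Xrcc6 (0.26). Of all genes 19.0% were called lower and 22.1% higher there. KO cells with zero DOX, which had the lower Prdm1, did not have the list higher as a whole against wild type: 5 were higher, among them Syk (1.37), Cd86 (0.71), Spib (0.63) and Pax5 (0.51), and 4 lower, Id3 (-1.03), Xrcc5 (-0.42), Myc (-0.36) and Xrcc6 (-0.16). The Xrcc6 call was lost after centring (-0.15, adjusted p = 0.096) and without single arrays, among them KO day 3 zero DOX replicate 2 (-0.15, adjusted p = 0.062). In that comparison 19.0% of all genes were called higher and 15.8% lower. A second Pax5 set was at -0.02 in it (adjusted p = 0.9).

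Genes that are higher where Blimp-1 is present, mainly genes of the plasma cell and its secretory pathway, followed Prdm1. Of 13 tested in the list of 15 (Ly6c1 and Ly6c2 were not analysed here), 11 rose and 0 fell with high against zero DOX (median 1.43). Jchain, which joins secreted IgM and IgA, rose by 6.93 (SE 0.31), Bhlha15, which encodes the secretory cell factor Mist1, by 4.68, Fkbp11, a plasma cell folding factor, by 3.00 and Sdc1, which encodes CD138, by 2.99. Second probe sets of Bhlha15 (-0.07, adjusted p = 0.57) and Fkbp11 (0.10, adjusted p = 0.18) were not called, and the other Sdc1 sets rose by 2.40, 0.35 and 0.34. With low against zero DOX 10 rose and 0 fell (median 0.96), with Jchain at 6.41, Bhlha15 at 3.68, Sdc1 at 2.19 and Fkbp11 at 1.83. With high against low DOX 8 rose and 0 fell (median 0.32), led by Fkbp11 (1.17), Tnfrsf17 (1.11), which encodes BCMA, Bhlha15 (1.00) and Sdc1 (0.81). In zero DOX cultures against wild type 9 were lower and 0 higher (median -0.84), with Jchain at -6.90, Bhlha15 at -3.15, Sdc1 at -2.33 and Fkbp11 at -1.69. Of all genes 24.4%, 17.6% and 6.69% rose in the dose comparisons in the order given, and 15.8% were lower in zero DOX cultures than in wild type. Many of the listed genes are known targets of IRF4 or Xbp1, so the list is not particular to Blimp-1.

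Although Prdm1 was higher with low DOX than in wild type at day 3, these genes did not all follow. There 5 of the 13 were higher and 2 lower (median 0.13 against -0.01 for all genes). Of all genes 18.9% were called higher and 15.3% lower, so the lower count is near its share. Among the 5 was Irf4 by the probe set that did not follow doxycycline. Bhlha15 stood 0.53 above wild type (adjusted p = 0.011), a call lost without low DOX replicate 1 (0.36, adjusted p = 0.1) or replicate 2 (0.47, adjusted p = 0.052). Edem1, of the pathway that removes misfolded glycoproteins, stood 0.35 above (0.07 by its other set, adjusted p = 0.64), and the elongation factor Ell2 0.33. Tnfrsf17 stood 0.56 below wild type (adjusted p = 0.00089) and Cxcr4, a homing receptor, 0.84 below (adjusted p = 0.035), the latter not called in 5 alternatives. Jchain (-0.49, adjusted p = 0.24) and Sdc1 (-0.15, adjusted p = 0.49) were not called. With high DOX against wild type 11 were higher and 0 lower (median 0.55, with 22.1% of all genes higher), led by Bhlha15 (1.53) and Fkbp11 (1.31).

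At day 1, where Prdm1 was not called, 3 of the 13 genes were already higher with high against zero DOX and 0 were lower, against 1.26% of all genes called higher. These were Sdc1 (1.01, SE 0.15), Edem1 (0.39) and Ell2 (0.31). Without the pair of arrays that went against their labels, 2 were called. Ell2 lost its call in 9 alternatives, and when only the groups compared were fitted all 3 did (adjusted p = 0.057 for Sdc1, 0.057 for Edem1 and 0.12 for Ell2). The Blimp-1 repressed genes had 0 calls in this comparison by limma, where 2.75% of all genes were called. An unadjusted p under 0.05 was reached by 6 of the 19 and by 1431 of the 12183 genes tested. With the replicate number as a block 1 of the 19 was called lower.

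**Figure D3:**
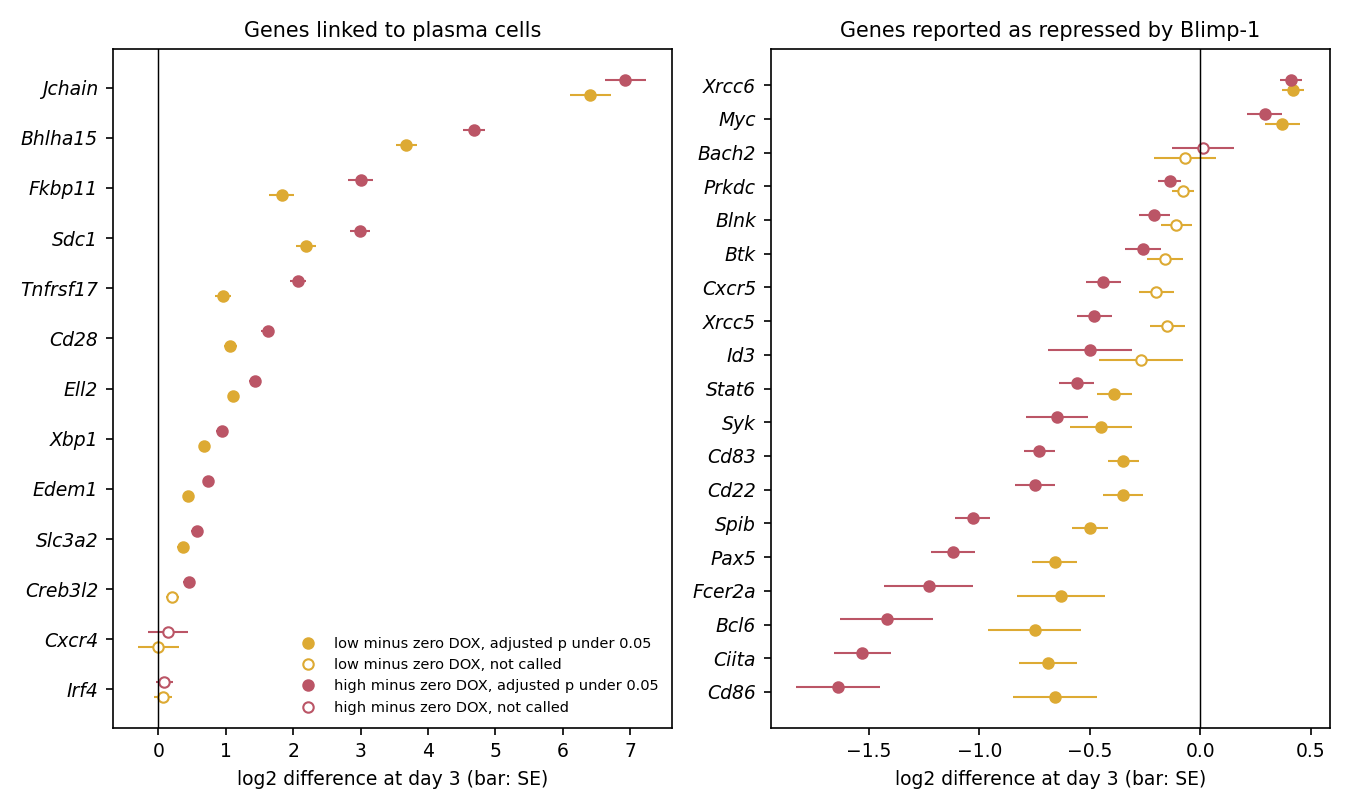
Log2 differences at day 3 (points, with SE bars) for genes that are higher where Blimp-1 is present (left) and genes reported as repressed by it (right), low minus zero DOX in yellow and high minus zero DOX in red, filled where the adjusted p was under 0.05. On the left 11 of 13 genes rose with high DOX, up to 6.93 for Jchain, and on the right 16 of 19 fell, down to -1.64 for Cd86. Irf4 is drawn by the probe set that did not respond to doxycycline.

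Transcripts of the proteins that work with Blimp-1 changed in both directions. Of 12 corepressor genes tested in a list of 13 (Tle2 was below the filter), 4 rose and 2 fell with high against zero DOX (median 0.16), a total near that over all genes (48.6% called). Ezh2, the Polycomb methyltransferase, rose by 0.78 and the deacetylase Hdac2 by 0.34, while Prmt5 (0.18), Tle6 (0.17) and Hdac1 (-0.13) were small changes that other settings did not always call, and Tle4 fell by 0.40 (-0.24 and 0.22 by its other sets, neither called). With high against low DOX limma called 0 of the 12 and 12.8% of all genes. An unadjusted p under 0.05 was reached by 2 of the 12 and by 3000 of the 12183 genes tested.

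Other genes of the PRDM family did not share the rise of Prdm1. Of 9 tested (Mecom and Prdm14 were below the filter), 0 rose and 5 fell with high against zero DOX (median -0.14): Prdm16 (-0.43), Prdm2 (-0.40), Prdm10 (-0.18), Prdm11 (-0.18) and Prdm4 (-0.14). Of all genes 24.4% rose and 24.2% fell. After centring or quantile normalization 2 of the 9 fell. Other probe sets of Prdm16 (0.07 and 0.13), Prdm11 (0.11) and Prdm2 (-0.14) were not called. With low against zero DOX 0 rose and 2 fell (17.6% and 18.2% of all genes did).

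Among the neighbours of Prdm1 on chromosome 10, 5 of 6 were tested (Bves was below the filter). With high against zero DOX 3 rose and 1 fell (24.4% and 24.2% of all genes did). Rtn4ip1 rose by 0.64 (0.50 by its other set) and Prep by 0.46 (0.30 by its other set). The autophagy gene Atg5, the gene next to Prdm1 in the gene table's order, rose by 0.30, and by 0.66 and 0.64 by its other sets. Crybg1 fell by 0.25, a call lost with quantile normalization. The median difference of the neighbours, each by its tested set of highest mean, was 0.30, against 3.20 for Prdm1. In KO with zero DOX against wild type Prep was 0.27 lower, Crybg1 0.40 higher and Atg5 at 0.07 (adjusted p = 0.4).

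Likeness to Prdm1 was described by Pearson's r over the 30 arrays, among 4166 genes whose group means spanned at least 1.0 on the log2 scale. The arrays share a table and fall into 2 clumps, the 9 day 3 arrays with high Prdm1 and the other 21, so r mainly measures that division and carries no p. The 10 most similar genes were Sec24d, a COPII coat subunit (r = 0.974), Derl3, of ER-associated degradation (0.965), Ell2 (0.964), Rbm47, an RNA-binding protein (0.964), Edem2, of ER-associated degradation (0.962), Leprotl1 (0.955), Tram2 (0.951), Sec11c, a signal peptidase subunit (0.95), Dusp14, a phosphatase (0.948), and Etv5, an ETS factor (0.947). The next gene had r = 0.946, and 39 genes reached 0.9. Tram2 rests on 1 of its sets: with high against zero DOX it rose by 2.90, and a second set was at 0.05 (adjusted p = 0.71). Sec24d came closest in size as well: its group means were 7.62 at day 3 with zero DOX, 9.47 in wild type, 9.78 with low DOX and 10.78 with high DOX. The opposite pattern was led by Ggct (-0.923), Pglyrp2 (-0.89), Msra (-0.885), Msrb2 (-0.883) and Rhof (-0.868), and 1 gene reached -0.9.

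Within the 9 day 3 arrays with high Prdm1, Tram2 by its ranked set had r = 0.992, Rbm47 0.989 and Sec24d 0.975. Of the 10 genes 1 remained among the 10 most similar. Of the 13 genes that are higher where Blimp-1 is present, 12 spanned enough to be ranked, and they were spread widely over all arrays, with Ell2 at 0.964 (rank 3), Bhlha15 at 0.943 (rank 13), Cd28 at 0.922 (rank 22), Edem1 at 0.901 (rank 38), Fkbp11 at 0.901 (rank 39), Tnfrsf17 at 0.853 (rank 91), Sdc1 at 0.765 (rank 180), Xbp1 at 0.753 (rank 190) and Jchain at 0.689 (rank 262). Slc3a2 (0.097), Cxcr4 (0.075) and Irf4 by the set that did not follow doxycycline (-0.44) were far lower.

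**Figure D4:**
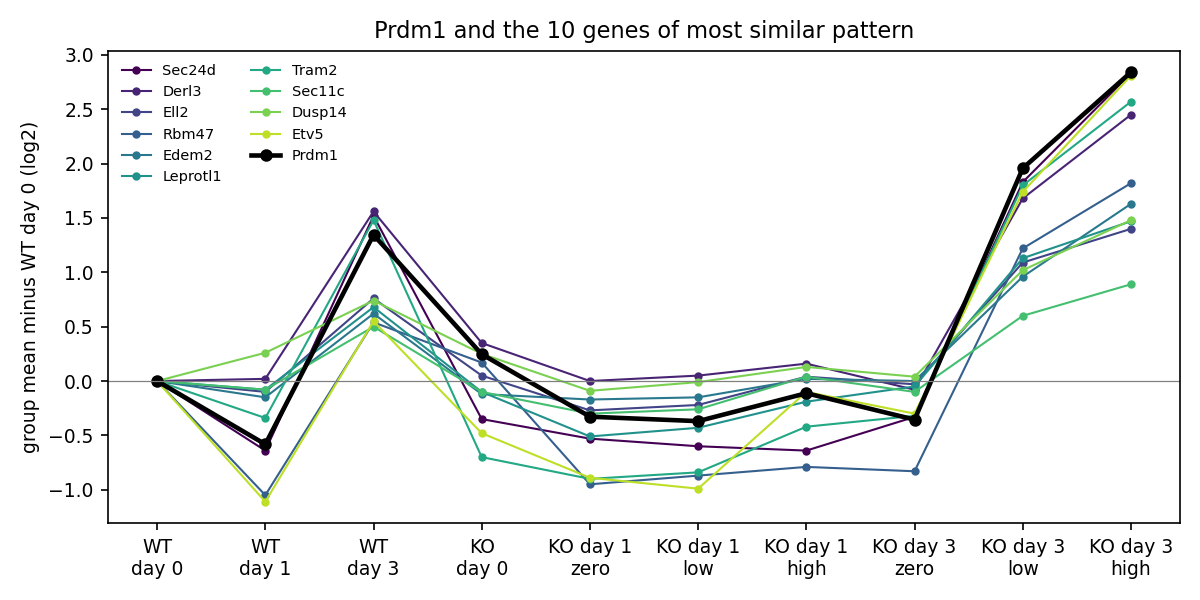
Group means of Prdm1 (black) and of the 10 genes with the highest Pearson r to it over 30 arrays, each minus its own wild-type day 0 mean, on the log2 scale. All 11 lines rise at wild-type day 3 and at KO day 3 with low and high DOX; Etv5 reached about the height of Prdm1 with high DOX but rose less in wild type.

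Markers of other cell types moved with these comparisons. The 8 plasma cell markers all rose with high against zero DOX at day 3 (median 2.48) and with low against zero DOX (median 1.46), and 6 of 8 with high against low DOX. Of all genes 24.4%, 17.6% and 6.69% rose there. The summed intensity of these markers was 10555 to 12063 with zero DOX, 23564 to 29770 with low DOX, 33867 to 36790 with high DOX and 30588 to 31554 in wild type. The low DOX arrays, with more Prdm1 than wild type, had a lower plasma marker sum than wild type, without overlap. Gene by gene the markers were not lower as a whole: 1 of the 8 was called higher and 1 lower (median -0.12). Of all genes 18.9% were called higher and 15.3% lower in that comparison. All 7 tested B cell markers fell with high and with low against zero DOX (24.2% and 18.2% of all genes did).

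Blimp-1 is also made by myeloid, NK and T cells. Myeloid and NK markers were higher in zero DOX cultures, where Prdm1 was low, than in high DOX cultures. Of 14 tested myeloid markers 10 were lower with high against zero DOX and 0 higher, of 7 NK markers 7 were lower and 0 higher, and of 7 T cell markers 3 were lower and 1 higher. Of all genes 24.2% were called lower and 24.4% higher. With low against zero DOX 8 myeloid, 1 NK and 2 T cell markers were lower and 0 of each were higher. Of all genes 18.2% were called lower and 17.6% higher there. Myeloid markers summed to 8900 to 16515 with zero DOX at day 3, 3903 to 6361 with low DOX, 2335 to 3047 with high DOX and 2346 to 2766 in wild type. NK markers summed to 7897 to 14952, 6194 to 11492 and 1861 to 3108 across the doses and to 2298 to 3404 in wild type. No marker was at the lowest value on all arrays. Across the KO doses the medians of both sums fell as Prdm1 rose. Low DOX, however, exceeded wild type in both sums and in Prdm1, and high DOX overlapped wild type in both sums while Prdm1 was higher. T cell markers summed to 2726 to 2932 with zero DOX, 2260 to 2652 with low DOX, 2232 to 2480 with high DOX and 1967 to 2109 in wild type. The part of these cells in the Prdm1 signal at day 3 was not tested.

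At day 0 the genotypes differed in these markers. Myeloid markers were higher in KO than in wild type in 10 of 14 cases (8 without KO day 0 replicate 2), NK markers in 5 of 7 and T cell markers in 4 of 7, and none was lower, while 5 of 8 plasma cell markers were lower and 1 higher. Of all genes 13.1% were called higher and 18.4% lower. Across KO replicates 1, 2 and 3 the myeloid sum was 12650, 17170 and 7513, and Prdm1 was 8.46, 8.88 and 7.76. In wild type of that day the myeloid sum was 3454, 3639 and 3426, and Prdm1 was 8.12, 7.87 and 8.37. The part of these other cells in the Prdm1 signal was not tested.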

How the data were processed

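Trizol RNA was hybridised to Affymetrix mouse arrays. The deposited table gives 1 linear intensity per probe set and array, normalized by the authors with D-Chip (PM-only model) according to the series design. MAS5 appears in the submitters' processing notes without a stated role. Of 45101 probe sets, 64 controls were left out, 34945 had 1 symbol, 932 several and 9160 none in GEO's platform annotation, and Entrez identifiers linked 34741 symbols to a RefSeq table (GRCm38.p6). Sets above the table's median (188.2) on at least 3 of 30 arrays were tested, giving 12183 genes, each by its tested set of highest mean.

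Log2(intensity + 16) was fitted with limma 3.58.1 under R 4.3.3, 1 mean per group over 30 arrays (20 residual degrees of freedom), with Benjamini-Hochberg adjustment over all genes within each comparison and a threshold of 0.05. Every p-value above is limma's, and every difference is the first group minus the second. With 3 arrays in each group, exact permutation reaches p = 0.1 at the lowest. The fit was tested on simulated data. Members, gene lists and comparisons were chosen with earlier results of these data known. Named list members were up to 4 with the largest called changes each way. The genes most like Prdm1 were the 10 of highest and 5 of lowest r, passing over immunoglobulin variable genes and unnamed transcripts.

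KO arrays of the same replicate number deviated together in every KO comparison (correlations 0.337 to 0.858), so the numbers were taken as pairs within KO; the labels do not say that they share a mouse. Wild-type numbers did not pair with KO numbers or across days. Alternatives covered the pseudocount, the filter, normalization, array weights, the groups fitted, the replicate block and leaving out arrays. The report used no array of unknown group.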

Additional observations from a re-analysis of the deposited data

Results flagged for a closer look

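The change of Prdm1 from day 0 to day 3 differed between KO cells with zero DOX and wild type by -1.95 on the log2 scale (adjusted p = 2.4e-05, limma interaction term), and the change from day 1 to day 3 also differed by -1.95 (adjusted p = 5e-05). The effect of high against zero DOX differed between day 3 and day 1 by 2.98 (adjusted p = 3.1e-08). These 3 results are listed because a test of the difference itself passed the threshold. Over single arrays left out they ranged from -2.25 to -1.69, from -2.11 to -1.84 and from 2.86 to 3.06, and all stayed past the threshold.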

How the results depend on the processing

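The comparisons of day 3 doses with zero DOX and with each other, of zero and high DOX with wild type at day 3, and of day 3 with day 1 in wild type, low DOX and high DOX kept direction and call for Prdm1 in every alternative run, as did day 3 against day 0 in wild type; high against low DOX ranged from 0.71 to 1.01 over single arrays left out. The order of the 10 groups did not change with pseudocount or scaling. The fall of wild type from day 0 to day 1 lost its call with quantile normalization (-0.42) and centring (-0.42) and ranged from -0.74 to -0.46 without single arrays. The genotype interaction from day 0 to day 1, never called, turned sign with pseudocount 64 (-0.02), quantile normalization (-0.14), centring (-0.16), array weights (-0.04) and without the pair of day 1 arrays (-0.05), and ranged from -0.30 to 0.27. Zero DOX at day 3 against day 1, never called, turned to 0.03 with array weights and to 0.03 without that pair (range -0.09 to 0.09), and low against zero DOX at day 1 ranged from -0.09 to 0.03. Array weights called zero DOX (0.35), low DOX (0.32) and high DOX (0.58) against wild type at day 1 and high DOX at day 1 against KO day 0 (-0.43). Fitting only the groups compared called high DOX against wild type at day 1 (0.47) and lost KO day 1 (-0.58) and day 3 (-0.60) with zero DOX against KO day 0 and the difference of steps (-1.43). Over single arrays left out, KO against wild type ranged from -0.01 to 0.55 at day 0, high DOX against wild type from 0.38 to 0.63 at day 1, high DOX at day 1 against KO day 0 from -0.66 to -0.10, low DOX against wild type from 0.48 to 0.79 at day 3, the difference of steps from -1.78 to -1.17, and zero DOX against KO day 0 from -0.88 to -0.32 at day 1 and from -0.91 to -0.34 at day 3. Of the 10 genes most like Prdm1, 4 remained by Spearman's rho, 2 over the 6 stimulated KO groups and, in a choice made after seeing the data, 1 over the 9 day 3 arrays with high Prdm1. Of 1854 alternative values for 116 results of named genes, 90 lost the call, in 17 results, and 0 changed sign. The replicate block changed no call for Prdm1; it raised the share of genes called at day 1 from 2.75% to 4.19% with high against zero DOX and from 1.86% to 2.95% with high against low DOX. Other settings moved the share called with high against low DOX at day 3 (12.8%) to between 5.70% and 33.0%, in the difference of steps (4.37%) to between 0.895% and 16.3%, with high against zero DOX at day 1 to between 0.0246% and 5.64%, and between the genotypes at day 0 (31.5%) to 10.9% and 20.8%. Except where fewer arrays or genes were fitted, the cause was not tested.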
